A study of Rattus norvegicus with 6 samples.

Results

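Cell cycle and mitosis genes were followed in the pancreas of rats with acute pancreatitis (AP) through a list of 50 gene symbols. The list held 9 G1 genes, 15 S phase genes and 26 mitotic genes, and 49 of the symbols were among the 19780 in the deposited count table. E2f1 is not analysed here. Poly(A) RNA was sequenced in bulk from 3 AP libraries and 3 control libraries (CTL in the labels) of wild type male Sprague-Dawley rats, an outbred strain, aged 8 weeks. AP was induced by intraperitoneal L-arginine, an amino acid that injures the exocrine pancreas when given in excess, and controls received saline. The sample labels name a dose of 5 mg/kg for 36 hours, but the series design has 2 doses of 2.5 g/kg and collection at 48 hours, and the sources do not settle which applied. AP libraries held 17404247 to 18961353 counts and control libraries 14453584 to 18196636.

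Cells enter the cycle when D-type cyclins with CDK4 and CDK6 phosphorylate the retinoblastoma protein, which frees E2F factors to switch on cyclin E and the replication genes. Replication origins are licensed with the MCM helicase in G1 and fired in S phase, and the B-type cyclins with CDK1 then drive mitosis. In adult rodents acinar cells divide rarely, and after injury both epithelial and non-epithelial cells of the pancreas can enter the cycle. In bulk tissue, more cells of a cycling type and more transcript per cell cannot be told apart.

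Promoters of the list were searched for letters known from cell cycle control, and 5 are shown as examples of windows that hold them. Promoter windows of RefSeq (build GRCr8, 250 bases before to 50 after each gene start) were at hand for 37 of the 50 members. The motifs were searched on both strands: the cell cycle homology region (CHR, TTTGAA), which binds the DREAM and MuvB complexes, the CCAAT box (CCAAT), bound by NF-Y, and an E2F-like motif (TTTNNCGC). In the examples capitals mark matches on either strand (ATTGG is CCAAT on the other strand), positions count back from -1 at the base before the start, and each window is the 150 bases that precede it.
Kif23, GRCr8 chr8:71320585-71320734, minus strand: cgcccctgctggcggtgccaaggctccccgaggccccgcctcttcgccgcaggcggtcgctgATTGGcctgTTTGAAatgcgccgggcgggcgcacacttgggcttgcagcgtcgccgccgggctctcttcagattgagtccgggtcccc
Ccnb2, GRCr8 chr8:79981659-79981808, minus strand: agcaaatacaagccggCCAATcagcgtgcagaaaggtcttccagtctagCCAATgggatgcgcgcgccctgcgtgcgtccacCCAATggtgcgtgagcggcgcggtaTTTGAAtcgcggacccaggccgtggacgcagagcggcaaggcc
Cdc20, GRCr8 chr5:137255800-137255949, minus strand: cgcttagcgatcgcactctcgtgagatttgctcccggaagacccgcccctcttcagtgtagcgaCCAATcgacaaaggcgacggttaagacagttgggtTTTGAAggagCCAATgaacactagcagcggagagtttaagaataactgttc
Mcm5, GRCr8 chr19:13488663-13488812, plus strand: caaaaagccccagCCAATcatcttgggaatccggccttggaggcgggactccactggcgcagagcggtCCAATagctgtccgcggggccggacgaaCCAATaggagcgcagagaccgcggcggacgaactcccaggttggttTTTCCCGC
Mcm6, GRCr8 chr13:42404353-42404502, minus strand: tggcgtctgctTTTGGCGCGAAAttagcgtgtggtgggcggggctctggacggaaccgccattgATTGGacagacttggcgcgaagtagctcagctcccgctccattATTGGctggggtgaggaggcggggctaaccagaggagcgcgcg

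The CHR stood in the windows of 14 of 21 mitotic genes (66.7%), 1 of 12 S phase genes (8.33%) and 19.4% of all 27457 genes with a window. In Kif23 it began at -79, in Ccnb2 at -214 (before the bases shown) and -43, and in Cdc20 at -51. The E2F-like motif stood in 8 of 12 S phase genes (66.7%), 3 of 21 mitotic genes (14.3%) and 5.48% of all genes, and in Mcm6 the matches on both strands overlap. CCAAT was found in 9 of 12 S phase genes (75%), 17 of 21 mitotic genes (81%) and 39.6% of all genes. Of 4 G1 genes with a window, 2 held CCAAT and 0 held either of the other motifs. These matches describe letters only, and whether any factor binds there was not measured.

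Most S phase and mitotic transcripts were higher in AP pancreas than in controls, whereas G1 genes rose about as often as all tested genes. Of 48 tested members, 40 rose and 1 fell by edgeR's quasi-likelihood test with TMM scaling at an adjusted p of 0.05. Over all 13240 tested genes, 34.1% were called higher and 30.5% lower. By phase, 13 of 15 S phase genes and 24 of 25 tested mitotic genes rose. Of 8 tested G1 genes 3 rose, a share near the 34.1% of all tested genes, and 1 fell. The median log2 fold change was 1.40 for S phase, 1.44 for mitotic and 0.32 for G1 genes, against 0.07 for all tested genes. At least 2-fold rises numbered 33 of the 48 members, against 24.2% of all tested genes. All 3 AP libraries lay above all 3 controls in 40 members and below them in 1, against 37.8% and 33.1% of all tested genes.

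The size of each fold change depends on the scaling. With library totals alone in place of TMM, the median over all tested genes moved to 2.25, 88.2% of all genes were called higher and 4.33% lower, and 47 members rose while 1 fell. The median of the members was then 3.51, against 1.33 under TMM, a shift that this scaling gives to all genes alike. As a plain share of reads, the members took 40.2, 38.9 and 39.3 of every 10000 named counts in AP replicates 1 to 3, against 4.57, 6.14 and 5.77 in control replicates 1 to 3. TMM-normalised CPM values (counts scaled to a fixed library size) are given from here on, as levels unless a fold change is named.

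**Figure D1:**
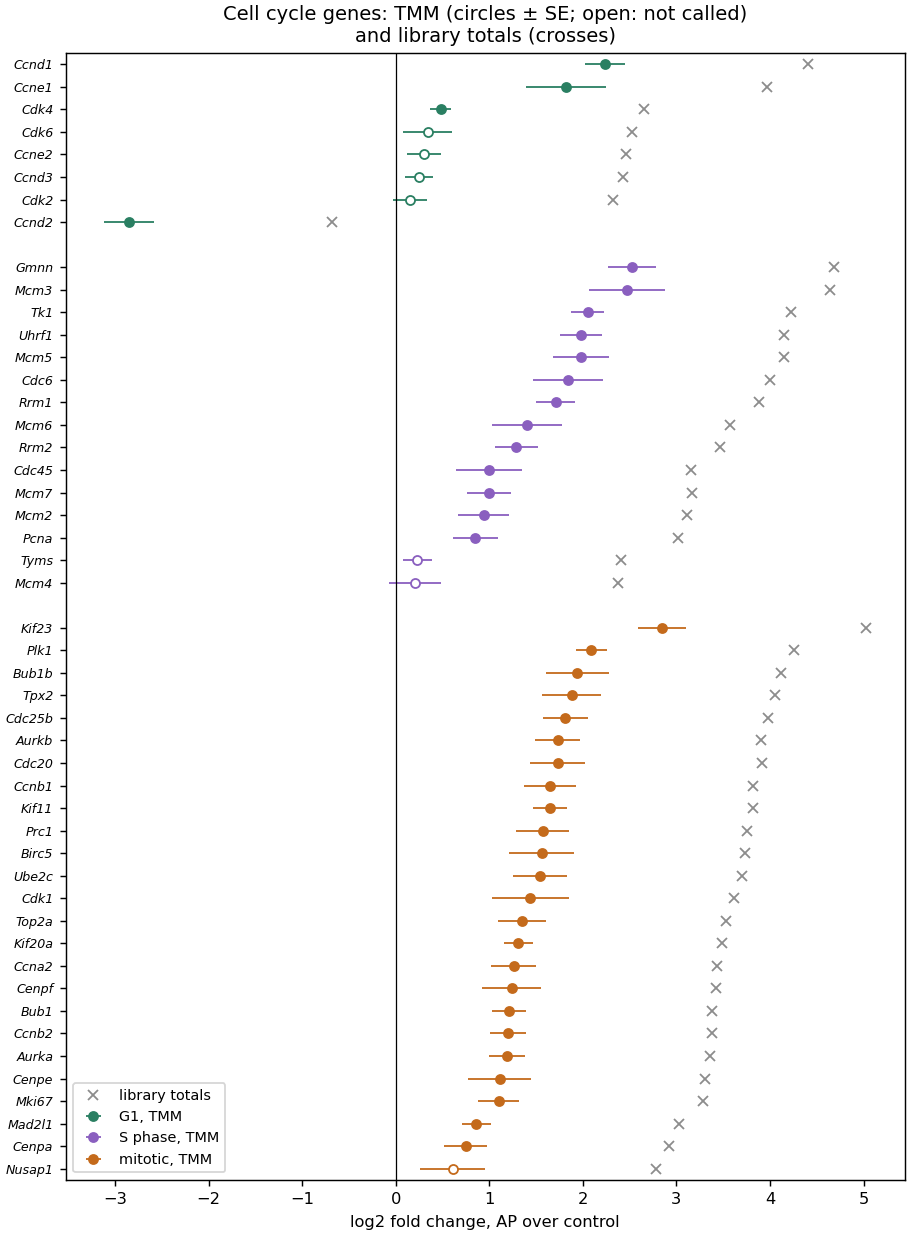
Log2 fold change (AP over control) of the 48 tested members by phase, under TMM (circles with standard error, open where not called) and with library totals (grey crosses). Every S phase and mitotic circle lies above 0, Ccnd2 lies at -2.85, and library totals move every gene to the right.

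Markers of acinar cells and leukocytes moved with the comparison by more than the median cycle gene did. Counts of 9 acinar markers found in the table, led by digestive enzymes, made up 0.606%, 0.648% and 4.46% of AP libraries and 32.7%, 35.3% and 33.3% of control libraries. All 9 fell (median log2 fold change -6.64), with AP replicate 3 keeping the most and a median of -8.08 without it, and they were the leading markers of the labelled tissue in controls. All 10 leukocyte markers rose, with 1.04% to 1.10% of counts in AP libraries against 0.00447% to 0.00561% in controls. The B cell genes Cd79a and Ms4a1 were at 0 counts in every control, and the other 8 had log2 fold changes from 3.12 to 6.00. Without control replicate 2 the genes Cd8a and Cd3e were at 7.42 and 3.74, against 6.00 and 3.12 with it. Of 7 fibroblast and stellate markers, 6 rose (median 2.17, and 0.745% to 1.91% of counts in AP against 0.0476% to 0.0627% in controls). Duct markers numbered 3 higher and 1 lower of 5, endothelial markers 1 higher and 1 lower of 4, and the 4 islet markers did not pass (unadjusted edgeR p of 0.131 to 0.568). The 2 lower ones, Cftr and Kdr, rose with library totals, as did the islet markers. The part of these shifts in the cell cycle results was not tested.

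Among the G1 genes, the D-type cyclins moved in different directions. Ccnd1, the cyclin D1 gene that growth signals induce, stood at 63.2, 41.9 and 67.5 CPM in AP libraries, against 10.4, 14.1 and 12.0 CPM in controls. All AP libraries were above all controls, and the log2 fold change was 2.24 ± 0.213 (SE; edgeR adjusted p = 3.44e-05). Ccnd2, which encodes cyclin D2, the D-type cyclin needed for beta cell growth after birth in mice, ran the other way. It stood at 47.5, 52.2 and 70.3 CPM in AP libraries, against 291, 382 and 549 CPM in controls, and fell by 2.85 ± 0.266 on the log2 scale (adjusted p = 3.06e-05). It was the only member called lower, and it stayed lower with library totals (-0.68, adjusted p = 0.0182). Ccnd3, for cyclin D3, stood at 24.3, 27.3 and 22.6 CPM in AP libraries and 21.0, 23.6 and 17.7 CPM in controls. These groups overlapped, and Ccnd3 was not called (0.25 ± 0.149, adjusted p = 0.17).

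Counts of Ccnd2 relative to Ccnd1 within the same library do not depend on scaling. The ratio was 0.752, 1.25 and 1.04 in AP replicates 1 to 3, against 27.9, 27.0 and 45.6 in control replicates 1 to 3. Ccnd2 had many more counts than Ccnd1 in every control library and about as many in every AP library. Counts are not divided by transcript length, so the ratio compares libraries, not the 2 genes' abundances.

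**Figure D2:**
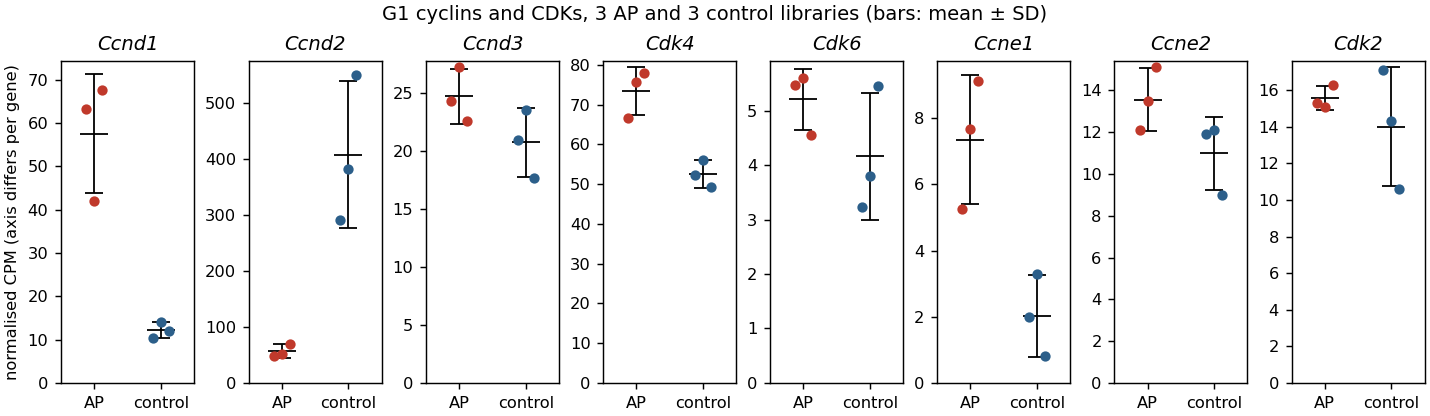
Normalised CPM of the 8 tested G1 cyclin and CDK genes in 3 AP libraries (left) and 3 control libraries (right), with mean and SD, each gene on its own axis from 0. Ccnd1, Ccne1 and Cdk4 lie higher in all AP libraries, Ccnd2 lies lower, and the other 4 overlap.

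The kinase genes of G1 had small fold changes under TMM. Cdk4, a partner of the D-type cyclins, was at 66.6, 75.8 and 77.9 CPM in AP libraries and 52.2, 56.2 and 49.3 CPM in controls, a log2 fold change of 0.48 ± 0.114 (adjusted p = 0.00571). The groups did not overlap, but the rise was only 1.40-fold. Cdk6, which also binds D-type cyclins, averaged 5.21 ± 0.567 CPM in AP and 4.16 ± 1.16 CPM in controls (SD, n = 3 each) and was not called (edgeR adjusted p = 0.289). Cdk2, the partner of cyclins E and A, averaged 15.6 ± 0.691 CPM in AP and 14 ± 3.27 CPM in controls and was not called either (edgeR adjusted p = 0.511). Its log2 fold change of 0.15 was -0.01 without control replicate 3. With library totals Cdk4, Cdk6 and Cdk2 were all called higher (2.65, 2.52 and 2.32).

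The E-type cyclins, which carry cells into S phase, also differed from each other. Ccne1 stood at 5.25, 7.68 and 9.11 CPM in AP libraries, against 1.99, 3.28 and 0.803 CPM in controls. All AP libraries exceeded all controls (1.82 ± 0.426, edgeR adjusted p = 0.00539), though the lowest control value rests on 5 counts. Ccne2 stood at 12.1, 13.5 and 15.1 CPM in AP libraries and 11.9, 12.1 and 8.99 CPM in controls, and these overlap (0.30 ± 0.179, adjusted p = 0.178). The ratio of Ccne2 to Ccne1 counts was 2.30, 1.76 and 1.66 in AP libraries against 6.00, 3.69 and 11.2 in controls, so it was lower in every AP library.

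In S phase, the lowest p-values belonged to a licensing inhibitor, genes of nucleotide supply and a reader of newly made DNA. Gmnn encodes geminin, which blocks relicensing of origins, and stood at 12.0, 15.8 and 18.1 CPM in AP libraries, against 2.11, 3.28 and 2.57 CPM in controls. The groups were far apart (log2 fold change 2.52 ± 0.256, edgeR adjusted p = 4.92e-05). Tk1, the cytosolic thymidine kinase, was at 43.5, 48.0 and 51.1 CPM in AP libraries and 11.8, 13.9 and 8.51 CPM in controls, and rose by 2.05 ± 0.18 (adjusted p = 2.24e-05). Uhrf1, which binds hemimethylated DNA behind the fork, was at 39.0, 39.5 and 44.6 CPM in AP libraries and 9.55, 14.3 and 7.07 CPM in controls (1.98 ± 0.227, adjusted p = 9.9e-05). Both genes were higher in every AP library than in any control.

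Of the ribonucleotide reductase subunits, Rrm1 was at 90.7, 103 and 107 CPM in AP libraries, against 32.5, 38.4 and 20.6 CPM in controls (log2 fold change 1.71 ± 0.21, edgeR adjusted p = 0.000147). The S phase subunit Rrm2 rose 2.45-fold and Pcna, the sliding clamp of DNA polymerases, 1.80-fold. Tyms, for thymidylate synthase, was not called. It stood at 46.7, 42.4 and 47.6 CPM in AP libraries and 44.2, 41.8 and 30.2 CPM in controls, which overlap (0.23 ± 0.154, adjusted p = 0.217; 2.41 and called higher with library totals). Cdc6, which loads the MCM helicase, rose 3.57-fold, and by 2.53 rather than 1.84 on the log2 scale without control replicate 2. Cdc45, which activates the helicase, rose 2.00-fold (adjusted p = 0.0351), but was not called without any 1 of the AP libraries (adjusted p of 0.0521 to 0.0886). Its counts summed 2 rows of the same symbol.

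The MCM helicase is a ring with 1 copy of each subunit from Mcm2 to Mcm7, yet these genes had unequal fold changes. Mcm3 rose most, with 47.6, 58.7 and 58.8 CPM in AP libraries against 13.2, 13.1 and 2.89 CPM in controls (log2 fold change 2.47 ± 0.408, edgeR adjusted p = 0.000824). Mcm5 (3.95-fold), Mcm6 (2.63-fold), Mcm7 (2.00-fold) and Mcm2 (1.91-fold) lay between. Mcm4 was not called, at 43.7, 58.5 and 52.2 CPM in AP libraries and 62.3, 45.6 and 25.4 CPM in controls (0.21 ± 0.278, adjusted p = 0.537). Control replicate 1 had the highest Mcm4 level of all 6 libraries, and without control replicate 3 the log2 fold change was -0.06. With library totals Mcm4 rose too (2.38), and Mcm3 by 4.64. The ratio of Mcm3 to Mcm4 counts was 1.09, 1.0 and 1.13 in AP libraries, against 0.211, 0.288 and 0.114 in controls. This pair, like Kif23 and Racgap1 below, was chosen after its values were seen.

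**Figure D3:**
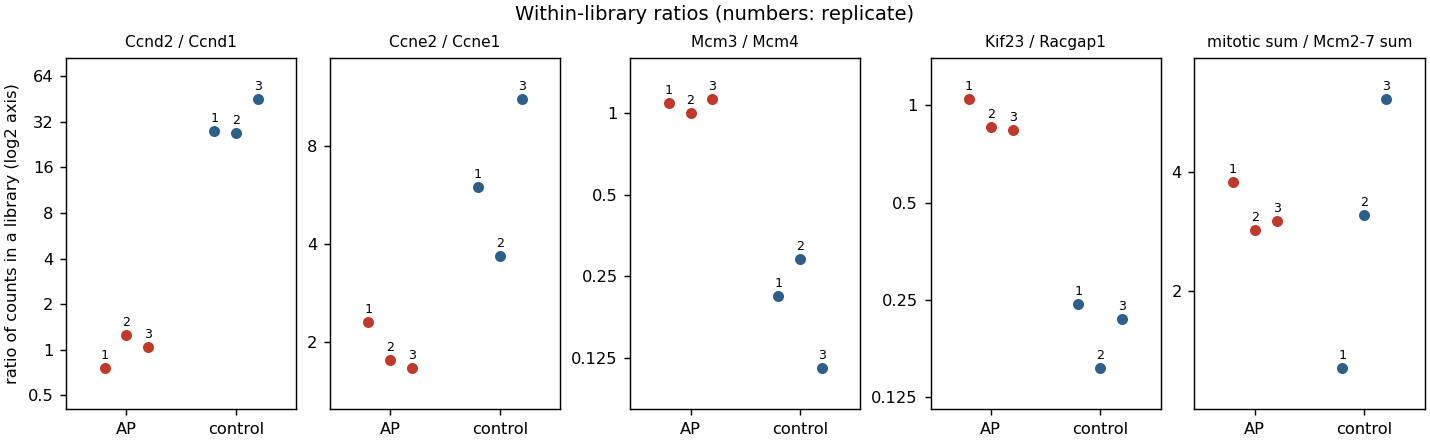
Ratios of counts within each of the 3 AP (left) and 3 control libraries (right) on a log2 axis, with the replicate number above each point. The first 4 ratios separate the groups, but Mcm3 to Mcm4 and Kif23 to Racgap1 were chosen after their values were seen. The ratio of summed mitotic to summed Mcm2 to Mcm7 counts is spread from 1.28 to 6.11 in controls around the AP values. Of the ratios not drawn, Cdk6 to Cdk4, Mki67 to Pcna, Top2a to Mki67, Ccnb1 to Ccne1 and Rrm2 to Rrm1 overlapped between groups. Cdkn1a to Ccnd1 and Ccnd3 to Ccnd1, also not drawn, were lower in every AP library than in any control.

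The tested mitotic genes had log2 fold changes from 0.61 to 2.85. Kif23, the kinesin of the centralspindlin complex that builds the midzone for cytokinesis, moved most. It stood at 43.2, 29.0 and 36.0 CPM in AP libraries, against 3.23, 6.06 and 5.78 CPM in controls, so each AP library was several times above each control (2.85 ± 0.256, edgeR adjusted p = 2.49e-05). Its centralspindlin partner Racgap1, no member of the list, was not called (0.57 ± 0.323, adjusted p = 0.15; 2.75 and called higher with library totals). The ratio of Kif23 to Racgap1 counts was 1.05, 0.858 and 0.838 in AP libraries, against 0.243, 0.153 and 0.218 in controls.

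Plk1, a kinase for spindle poles and mitotic entry, had the lowest p of the list, with 23.7, 19.6 and 24.1 CPM in AP libraries against 4.96, 5.30 and 5.62 CPM in controls (log2 fold change 2.09 ± 0.163, edgeR adjusted p = 1.19e-05). Its 3 controls lay close together, unlike those of most members. Kif11, the motor that pushes spindle poles apart, was at 38.7, 37.7 and 37.7 CPM in AP libraries and 8.81, 13.5 and 14.3 CPM in controls (1.65 ± 0.181, adjusted p = 7.97e-05). Kif20a, a midzone kinesin, was at 26.2, 21.3 and 20.9 CPM in AP libraries and 8.44, 9.72 and 9.48 CPM in controls (1.31 ± 0.156, adjusted p = 0.000127). Neither gene had overlapping groups.

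The proliferation markers Mki67 and Top2a also rose. Mki67, for the coat protein of mitotic chromosomes, was at 144, 163 and 141 CPM in AP libraries and 45.7, 83.2 and 80.0 CPM in controls (2.14-fold, edgeR adjusted p = 0.0022). Top2a, which untangles sister DNA, was at 124, 125 and 134 CPM in AP libraries and 30.4, 69.5 and 50.1 CPM in controls (2.55-fold, adjusted p = 0.00175). Both were higher in all AP libraries, with AP values close together and controls spread widely.

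The mitotic cyclins and their kinase rose together: Ccnb1 3.13-fold, Ccnb2 2.30-fold, Ccna2 2.39-fold and Cdk1 2.71-fold. The phosphatase gene Cdc25b, which activates CDK1, rose 3.51-fold. In the anaphase-promoting complex pathway, the activator gene Cdc20 rose 3.32-fold and the ubiquitin-conjugating enzyme gene Ube2c 2.90-fold. Of the spindle checkpoint genes, Bub1b rose 3.84-fold, Bub1 2.31-fold and Mad2l1 1.81-fold. Aurkb and Birc5 of the chromosomal passenger complex rose 3.31-fold and 2.96-fold (Birc5 by 2.16 rather than 1.56 on the log2 scale without control replicate 2), and Aurka, the spindle pole kinase, rose 2.28-fold. Tpx2, which activates Aurora A, rose 3.67-fold, and Prc1, which bundles midzone microtubules, 2.98-fold.

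Of the centromere genes, Cenpf rose 2.36-fold, Cenpe, a kinetochore motor, 2.16-fold, and Cenpa, the centromeric histone variant, 1.68-fold. Without AP replicate 1, Cenpa and Cenpe were not called (edgeR adjusted p = 0.0664 and 0.0518). Nusap1, a spindle-associated protein gene, was the 1 tested mitotic member that did not pass, at 21.5, 22.5 and 27.1 CPM in AP libraries and 6.95, 17.3 and 22.8 CPM in controls (0.61 ± 0.346, adjusted p = 0.154). Control replicate 3 lay within the AP range, and without it Nusap1 was called (0.97, adjusted p = 0.047). With library totals it was called as well (2.78).

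Foxm1, the transcription factor that drives mitotic genes, was too low to be tested. Its row held 4, 10 and 2 counts in AP libraries and 4, 2 and 0 in controls. The tested members had at least 155 counts in every AP library. Whether the row captures all Foxm1 transcripts was not tested.

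Control libraries varied more in these genes than in others, and in a way that differed by phase. The highest control library exceeded the lowest by a median of 2.03 times over the 48 members, against 1.38 times over all tested genes with counts in each control. In AP libraries the values were 1.26 times and 1.30 times. Control replicate 1 was the lowest control for 24 of 25 mitotic genes, whereas control replicate 3 was the lowest for 12 of 15 S phase genes. Summed mitotic counts over summed Mcm2 to Mcm7 counts were 3.77, 2.86 and 3.01 in AP replicates 1 to 3 and 1.28, 3.11 and 6.11 in control replicates 1 to 3. The AP values lay inside the control range, so this balance did not separate the groups. Counts behind the control values were small, from 5 to 3421 with a median of 81, against 155 to 6549 with a median of 1247 in AP.

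Beyond the list, 7 groups of 118 further cell cycle genes were examined, of which 115 were tested, 71 rose and 11 fell, while all 115 rose with library totals. The TMM counts, and those by group, stand against 34.1% higher and 30.5% lower over all tested genes. With library totals, 88.2% of all tested genes were called higher and 4.33% lower. The spindle and cytokinesis group had the median nearest that of the mitotic members, with 17 of 18 tested genes higher and a median log2 fold change of 1.45. In it, Cit, the citron kinase of the midbody, rose 11.9-fold, with 396, 361 and 299 counts in AP libraries against 4, 8 and 5 in controls. Dlgap5, a microtubule-associated protein gene, was at 24.4, 23.6 and 26.3 CPM in AP libraries and 5.34, 6.19 and 6.75 CPM in controls (log2 fold change 2.03 ± 0.153, edgeR adjusted p = 9.92e-06). Incenp, the scaffold of the passenger complex, was at 25.3, 26.6 and 29.9 CPM in AP libraries and 6.45, 6.82 and 8.03 CPM in controls (1.94 ± 0.154, adjusted p = 1.25e-05). Neither gene had overlapping groups. In the kinetochore and checkpoint group 13 of 15 rose (median 0.88), among them Knl1 (3.21-fold), the platform of checkpoint signalling, Cenpw (2.74-fold) and Zwint (2.11-fold).

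Of 16 condensin, cohesin and separase genes 11 rose and 3 fell, and the risers included Ncapd2 of condensin (2.86-fold), the separase gene Espl1 (4.29-fold) and its inhibitor gene Pttg1 (3.58-fold). The 3 that fell were the cohesin genes Rad21, Stag1 and Stag2 (log2 fold changes of -0.59, -0.74 and -0.34), picked after their values were seen, and all rose with library totals (1.59, 1.44 and 1.84). The cohesin genes Smc1a and Smc3, also picked afterwards, rose by 0.44 and 0.50. Cohesin also holds chromatin loops in cells that do not divide.

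Origin and fork genes were divided too, with 18 of 31 higher and 4 lower (median 0.66). Orc1, the origin recognition subunit gene that E2F controls, rose 3.65-fold. Of its complex partners, Orc2 and Orc4 fell by 1.26 ± 0.118 and 1.18 ± 0.127 on the log2 scale (edgeR adjusted p = 3.17e-05 and 7.17e-05). Both rose with library totals (0.92 and 1.0). Among the partners picked afterwards, Orc6 rose 2.68-fold under TMM, and Orc3 and Orc5 were not called. In the E2F and DREAM group 5 of 15 rose, a share near the 34.1% of all tested genes. Of the rest, 1 fell and 9 were not called (group median 0.27). The activator gene E2f3 rose 2.70-fold, Mybl2, the B-Myb partner of MuvB, 2.76-fold, and the repressor genes E2f4, E2f6 and E2f8 2.04-fold, 2.28-fold and 2.47-fold, while Lin52 of the MuvB core fell by 1.17 ± 0.192, which turned to 1.0 with library totals.

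Of 9 tested CDK inhibitor and pocket protein genes, the brakes of the cycle, 3 rose, a share near the 34.1% of all tested genes, and the other 6 were not called (median 0.17). Rbl1, the p107 pocket protein gene and itself an E2F target, rose 4.22-fold (edgeR adjusted p = 1.25e-05), and Cdkn2c 1.67-fold. The retinoblastoma gene Rb1 was at 39.9, 39.1 and 41.8 CPM in AP libraries and 29.3, 31.3 and 31.6 CPM in controls (0.39 ± 0.107, adjusted p = 0.0118). Cdkn1a, for the p53-induced inhibitor p21, had 607, 436 and 991 counts in AP libraries and 120, 264 and 182 in controls, and was not called (-0.50 ± 0.399, adjusted p = 0.302). Its direction turned with library totals (1.66, adjusted p = 0.0026). Relative to Ccnd1 within each library, Cdkn1a counts were 0.237, 0.259 and 0.431 in AP, against 1.43, 2.36 and 2.43 in controls. Ccnd1 itself rose by 2.24 on the log2 scale, so this ratio does not show a fall of Cdkn1a. Ccnd3, also not called, was likewise lower relative to Ccnd1 in every AP library than in any control. Cdkn1b, for p27, was not called (-0.19 ± 0.206, adjusted p = 0.445; 2.00 and called higher with library totals). Cdkn2a had 3, 2 and 0 counts in AP and none in controls, and was not tested.

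Among genes that set CDK activity, 4 of 11 tested rose and 3 fell (median 0.57), shares near the 34.1% and 30.5% of all tested genes. Wee1, a kinase that restrains CDK1, fell by 1.36 ± 0.167 (edgeR adjusted p = 0.000148). Cdc25a, the G1 and S phase phosphatase, fell by 1.11 ± 0.177 (adjusted p = 0.000659). Both rose with library totals (0.81 and 1.05). In the same group Pkmyt1 and Cdc25c, picked afterwards, rose by 0.70 and 0.97 under TMM. Ccnf, the cyclin F gene, rose 3.18-fold.

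**Figure D4:**
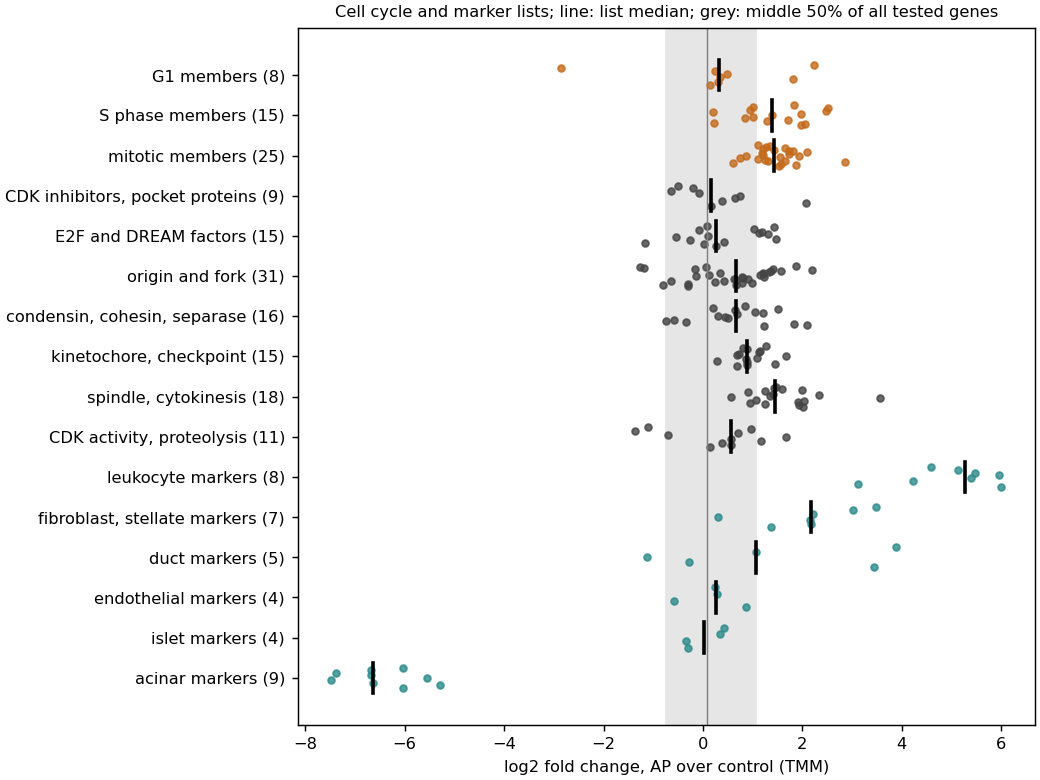
TMM log2 fold changes (AP over control) of the tested genes in the 3 phases of the list (orange), 7 further cell cycle groups (black) and 6 marker lists (teal), with list medians as black lines and the number of genes in brackets. Genes with no control count (Cd79a and Ms4a1) are left out. The grey band spans the middle 50% of all tested genes, from -0.74 to 1.06, and the S phase, mitotic and spindle medians lie above it.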

How the data were processed

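Members and lists were chosen with earlier results of these data known. The authors deposited whole-number counts of reads per gene symbol, not normalised. Per the submitters' processing notes they used FastQC, STAR, featureCounts and DESeq2 with build mRatBN7.2; no version, annotation, strand setting or rule for multi-mapping reads is stated there, so reads of overlapping antisense genes cannot be told apart. Of 23096 rows, 3110 without a gene name (1.41% to 2.1% of AP and 5.48% to 7.69% of control counts) were left out, and 185 symbols on several rows were summed.

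The 3 AP and 3 control samples were compared with edgeR 4.0.16 in R 4.3.3 (quasi-likelihood test, TMM, default filter on low counts, Benjamini-Hochberg adjustment over all tested genes). TMM factors were 2.00 to 2.24 in AP and 0.467 to 0.476 in controls, and normalised CPM therefore differ from read shares. Standard errors were derived from the size of the log2 fold change and its F statistic (ratio to the root of F). The fit was tested on simulated data in which few genes changed, equally up and down. It was not tested with changes in as many genes as were called here. The labels do not say that samples are separate animals, and p-values then reflect only how these samples vary, which may be technical. Pairs of libraries within a group were further apart than sampling noise allows (chi-square of 39.5 to 148 per gene).

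The rule gave full statistics to the 4 members with the lowest p in each phase, every member called lower and every tested member not called, and from each other list to the 3 genes with the lowest p plus Cdkn1a, Cdkn1b, Cdkn2a and Rb1. Departing from it for length, several genes of the other lists are given as folds or in part and the marker lists as summaries. Mcm3, Mki67, Top2a and Racgap1 were added after their values were seen, and E2f3, E2f8 and Mybl2 also stand outside the rule. Alternatives were DESeq2 1.42.0 size factors and Wald test, upper quartile scaling, library totals, TMM without acinar markers, limma-voom (limma 3.58.1), no filter, a filter of 50 counts in 3 samples, a replicate block and leaving out each library.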

Additional observations from a re-analysis of the deposited data

How the results depend on the processing

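Counts of called members kept within 1.5 times of those reported under every alternative except library totals, which called 7 G1 members higher rather than 3. For the other cell cycle genes, library totals gave 115 higher and 0 lower, against 71 and 11 with TMM. Over all tested genes, library totals called 88.2% higher and 4.33% lower, against 34.1% and 30.5% with TMM. Medians of log2 fold changes moved to 3.51 for all members, 2.49 for G1, 3.57 for S phase and 3.61 for mitotic genes with library totals, and the mitotic median was 1.59 with limma-voom. Leaving out 1 library at a time gave 37 to 41 members higher, with medians of 1.19 to 1.57 for all members, 0.29 to 0.37 for G1, 1.19 to 1.6 for S phase and 1.25 to 1.67 for mitotic genes. The direction of Cdk2 and Mcm4, neither called, turned without control replicate 3 (-0.01 and -0.06; ranges up to 0.32 and 0.53). Apart from library totals, which shift all genes by construction, the cause of these moves was not tested.

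Deviations of same-numbered AP and control libraries had correlations of -0.0286, 0.0325 and -0.107, and those of differently numbered pairs ran from -0.115 to 0.137. Correlations from 3 libraries per group cannot show whether samples were paired. With the replicate block 39 members rose, 1 fell and 7904 of all tested genes were called, against 8552 without it, and Cdc45 was not called (1.05, adjusted p = 0.0529). Control values of the members rest on a median of 81 counts, how far that depth sets the errors was not tested, and intervals from counts would cover counting error only.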
